A study of Mus musculus with 20 samples.

Results

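Liver tumors raised in mice with the FGF19 analog Aldafermin and MYC were compared with liver tumors raised with FGF19 itself and MYC. The 10 libraries were those whose sample titles name Aldafermin+MYC (5) or FGF19+MYC (5), out of 20 in the series, and 5 livers served as background. The remaining 5 were sgTrp53+MYC tumors, raised with MYC and CRISPR inactivation of Trp53. They were not compared here, but entered the filter on low counts, the normalization and the estimate of spread. All mice were young adult females with the genotype label C57Bl6J;WT, so that no mouse line with an engineered allele was used. Tumors were raised by hydrodynamic tail vein injection, which pushes plasmids into a part of the hepatocytes, with a Sleeping Beauty transposase that inserts the transgenes into the genome. Both compared tumor groups received the same MYC plasmid, driven by a ubiquitous elongation factor promoter. They differed in the second plasmid, which encoded human FGF19 or Aldafermin. The labels call the livers Non treated, whereas the methods of the study describe livers transfected with a red fluorescent protein plasmid. Each library came from a single tumor or liver of a different mouse. The compared tumors were collected within weeks of injection, with the day of each library not given in the sources used here. The genome used for counting is that of the mouse, and no row of the tables is named for the injected human genes, so that transgene level was not measured here.

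FGF19 is an intestinal hormone that reaches the liver after a meal and binds the receptor tyrosine kinase FGFR4 together with its co-receptor beta-klotho (Klb). The receptor signals through adaptors to the ERK kinases and represses Cyp7a1, the rate-limiting enzyme of bile acid synthesis. In the mouse the same role belongs to Fgf15. Aldafermin carries a short deletion and a few substitutions near the N-terminus of the hormone, and was designed to keep the metabolic activity without the growth-promoting one. The comparison therefore asks whether tumors raised with the analog and with the hormone differ in gene expression.

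For 5 genes on which the results below turn, the 250 bases before the transcription start are shown 5′ to 3′ on the strand of the gene, as RefSeq gives them for GRCm38.p6, a build other than the one used for counting. They are the 3 genes with the smallest p-values, Mdm2, Tmem98 and Igfbp3, and the macrophage genes Marco and C1qc, which differed in opposite directions. Capitals mark the E box CACGTG, to which MYC binds, the p53 half-site and the ETS core GAGGAA, each searched on both strands and without overlaps between motifs in these windows.
Mdm2, chr10:117710759-117711008, minus strand: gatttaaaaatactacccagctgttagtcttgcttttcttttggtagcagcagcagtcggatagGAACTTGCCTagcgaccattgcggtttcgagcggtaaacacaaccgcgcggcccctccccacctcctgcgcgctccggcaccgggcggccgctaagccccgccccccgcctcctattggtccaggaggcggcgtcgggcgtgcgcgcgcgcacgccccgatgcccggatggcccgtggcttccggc
Tmem98, chr11:80810116-80810365, plus strand: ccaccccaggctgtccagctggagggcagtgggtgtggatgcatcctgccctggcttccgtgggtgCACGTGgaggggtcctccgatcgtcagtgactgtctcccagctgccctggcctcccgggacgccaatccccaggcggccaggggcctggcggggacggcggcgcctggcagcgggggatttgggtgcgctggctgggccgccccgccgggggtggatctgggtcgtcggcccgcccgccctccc
Igfbp3, chr11:7213924-7214173, minus strand: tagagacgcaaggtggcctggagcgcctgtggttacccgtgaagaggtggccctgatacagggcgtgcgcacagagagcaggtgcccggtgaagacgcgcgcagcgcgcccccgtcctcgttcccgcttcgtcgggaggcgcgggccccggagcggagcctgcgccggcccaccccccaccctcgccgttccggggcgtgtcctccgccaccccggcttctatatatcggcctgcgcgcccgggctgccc
Marco, chr1:120505025-120505274, minus strand: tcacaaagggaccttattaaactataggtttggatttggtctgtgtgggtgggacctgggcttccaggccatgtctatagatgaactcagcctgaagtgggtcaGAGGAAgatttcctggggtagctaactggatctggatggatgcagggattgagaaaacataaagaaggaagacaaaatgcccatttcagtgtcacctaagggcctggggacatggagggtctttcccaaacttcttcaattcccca
C1qc, chr4:136892915-136893164, minus strand: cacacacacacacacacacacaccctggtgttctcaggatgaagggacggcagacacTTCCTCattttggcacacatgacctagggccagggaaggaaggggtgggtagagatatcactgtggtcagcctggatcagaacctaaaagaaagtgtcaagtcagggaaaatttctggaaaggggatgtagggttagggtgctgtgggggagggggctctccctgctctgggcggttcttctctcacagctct
The Mdm2 window held 1 p53 half-site pattern, a match found in 7.13% of the 32851 windows of the table. The Tmem98 window held 1 E box, which 6.02% of all windows held, and the windows of Marco and C1qc held 1 ETS core each, which 23.3% of all windows held. The Igfbp3 window held none of the 3 motifs. In GRCm39, the build of the counts, these protein-coding genes lie at chromosome 10, 117524780 to 117546730 (Mdm2), chromosome 11, 80700551 to 80713109 (Tmem98), chromosome 11, 7156086 to 7164179 (Igfbp3), chromosome 1, 120402267 to 120432753 (Marco) and chromosome 4, 136616466 to 136620376 (C1qc).

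Between 21604250 and 36119799 reads were counted on genes in Aldafermin+MYC tumors and between 18004977 and 28417261 in FGF19+MYC tumors. The share of reads not aligned was 15.3% to 24.2% and 20.9% to 34.0%. In the sample descriptions, the codes of 4 of the 5 FGF19+MYC tumors (replicates 2 to 5) hold consecutive numbers and that of replicate 1 a much lower one. The numbers in the codes of the Aldafermin+MYC tumors lie between these. What these numbers stand for is not given, and any difference between cohorts of mice cannot be told apart from the difference between the groups. FGF19+MYC replicates 2 to 5 correlated with each other at 0.962 to 0.987 over log2 CPM (counts scaled to a fixed library size and normalized by TMM) and with replicate 1 at 0.909 to 0.948, and Aldafermin+MYC tumors correlated with each other at 0.905 to 0.962. The hepatocyte marker list was below liver in every tumor, with a mean log2 CPM of 11.46 ± 0.15 (SD, n = 5) in livers, against 6.38 ± 1.27 (SD, n = 5) for the Aldafermin+MYC group and 7.12 ± 0.98 (SD, n = 5) for the FGF19+MYC group. Aldafermin+MYC replicate 4, at 8.44, and FGF19+MYC replicate 5, at 8.65, were the highest of the 10 tumors. In bulk tumors, fewer cells of a type and less RNA per cell cannot be told apart.

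No gene of the 14333 tested passed an adjusted p of 0.05 between the groups in edgeR's quasi-likelihood test (0%, smallest adjusted p = 0.0595), and 1048 genes (7.31%) had an unadjusted p under 0.05. Of these, 711 (4.96%) were higher in Aldafermin+MYC tumors and 337 (2.35%) lower. With RLE size factors in place of TMM, the same split was 609 higher and 446 lower. DESeq2's Wald test called 96 genes at an adjusted p under 0.05 (0.67%), edgeR's likelihood ratio test 59 (0.412%) and limma-voom with sample quality weights 73 (0.509%), and 31 genes were shared by these 3 tests, 28 of them higher in Aldafermin+MYC tumors. Every Aldafermin+MYC tumor lay above every FGF19+MYC tumor for 153 genes (1.07%) and below for 56 (0.391%). The number of calls depended on single libraries as well. Without Aldafermin+MYC replicate 4 the quasi-likelihood test called 29 genes (0.202%), 16 higher and 13 lower, without Aldafermin+MYC replicate 2 it called 6, and without any other single tumor it called 0. In the text below a gene is described as higher or lower by its values and its unadjusted p, counts over a gene list are to be read against the 4.96% higher and 2.35% lower over all genes, and a log2 fold change is positive where the Aldafermin+MYC tumors were higher. Standard errors, intervals and p-values of the quasi-likelihood test rest on a spread per gene shared by all 4 groups, livers and sgTrp53+MYC tumors included. They can therefore be wider or narrower than the tumor values alone would give.

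**Figure D1:**
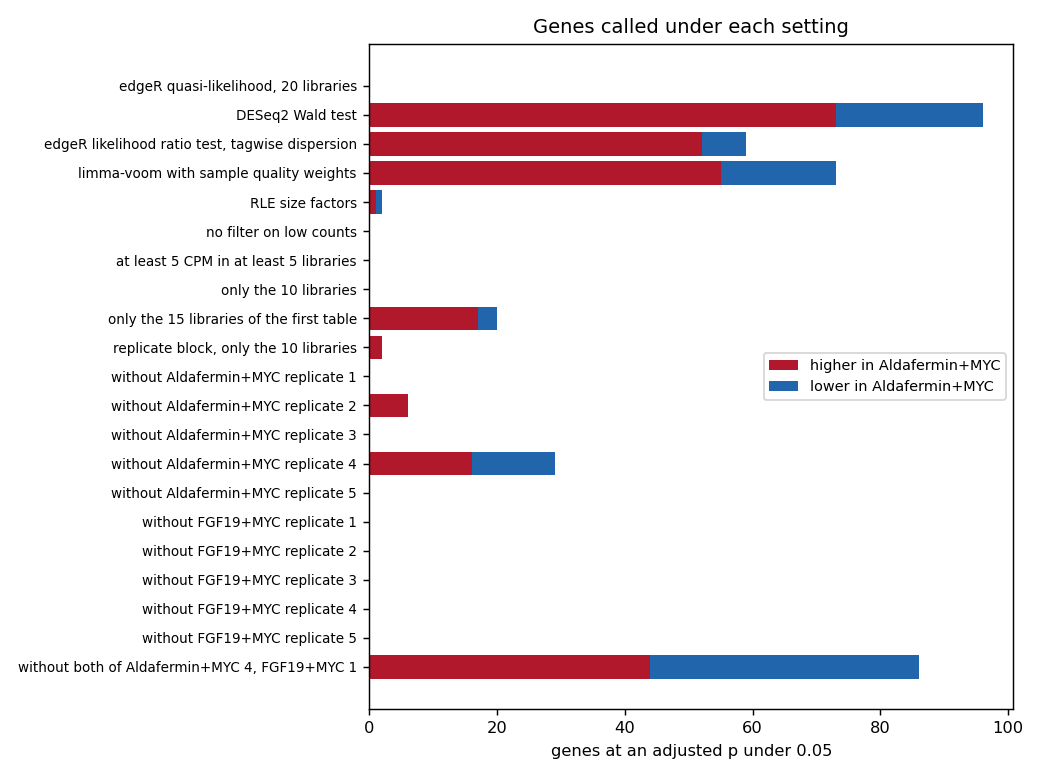
Number of genes at an adjusted p under 0.05 between Aldafermin+MYC and FGF19+MYC tumors (horizontal axis) under each test, filter and set of libraries (vertical axis), with genes higher in Aldafermin+MYC in red and lower in blue. The quasi-likelihood test on all 20 libraries called 0 genes, DESeq2 called 96, and leaving out Aldafermin+MYC replicate 4 and FGF19+MYC replicate 1 together gave 86.

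Among genes higher in Aldafermin+MYC tumors, Tmem98 and Igfbp3 had the smallest p-values. Tmem98, a single-pass membrane protein, had 22.3, 19.99, 29.4, 8.35 and 25.8 CPM in Aldafermin+MYC replicates 1 to 5 and 4.8, 5.57, 6.37, 6.72 and 8.08 CPM in FGF19+MYC replicates 1 to 5. The groups did not overlap, although the lowest Aldafermin+MYC tumor, replicate 4, was close to the highest FGF19+MYC tumor, and livers were at 27.2 to 36.3 CPM. Its log2 fold change was 1.74 (standard error 0.28, adjusted p = 0.0595 in edgeR's quasi-likelihood test and 2.54e-05 in DESeq2). Igfbp3, which binds insulin-like growth factors in the extracellular space, had 72.6, 75.1, 127, 44.1 and 57.4 CPM in Aldafermin+MYC tumors and 26.8, 22.1, 18.6, 18 and 14.4 CPM in FGF19+MYC tumors. Here too no tumor of one group lay within the range of the other, and livers, at 15.7 to 48.6 CPM, spanned most of the range of FGF19+MYC tumors. Igfbp3 differed by 1.92 ± 0.33 (standard error) on the log2 scale, and stayed within 1.64 to 2.06 with each tumor left out in turn.
Ctnnbip1 encodes an inhibitor that keeps beta-catenin from binding TCF factors. It had 59.6, 24.5, 43.4, 37.6 and 36.3 CPM in Aldafermin+MYC tumors and 21.5, 12.5, 16.5, 17 and 10.6 CPM in FGF19+MYC tumors, again without overlap, and its log2 fold change was 1.37 ± 0.25 (standard error), with an adjusted p of 0.0751. Fam83f, of a family of casein kinase binding proteins, had 22.2, 6.1, 17.7, 9.65 and 15.6 CPM in Aldafermin+MYC tumors and 0.502, 1.86, 1.89, 1.94 and 4.32 CPM in FGF19+MYC tumors. FGF19+MYC tumors were near the level of livers (0.287 to 2.6 CPM), and the log2 fold change was 2.75 (standard error 0.51, adjusted p = 0.0751). Reck, an anchored protein that restrains matrix metalloproteinases, had 13.4, 6.7, 13.8, 2.81 and 13.4 CPM and 2.57, 1.38, 1.53, 2.32 and 3.62 CPM in the same order of groups. Only Aldafermin+MYC replicate 4 lay within the FGF19+MYC range of Reck, and its log2 fold change of 2.13 (standard error 0.44) was 2.37 without that library.
The other leading genes in this direction were Pgap4 and Arl2bp, which act in glycolipid anchor maturation and small GTPase binding, Mpnd, Tmem106c, the carbonic anhydrase Car7, the Rap1 regulator Rap1gap2 and the aldehyde dehydrogenase Aldh1a7. Their log2 fold changes ranged from 0.74 (Mpnd) to 3.05 (Rap1gap2), with adjusted p-values from 0.0884 (Pgap4) to 0.127 (Arl2bp) in edgeR's quasi-likelihood test. Rap1gap2 had 38.5, 16.3, 32.5, 2.58 and 13.7 CPM in Aldafermin+MYC tumors against 4.19, 2.51, 2.47, 1.32 and 2.11 CPM in FGF19+MYC tumors. Replicate 4 of the Aldafermin+MYC group was the single tumor of that group within the range of the other. Aldh1a7 has a close paralog, Aldh1a1, so that its counts are uncertain where reads could be shared. Each of these 12 genes kept an unadjusted p under 0.05 with any 1 tumor left out.

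**Figure D2:**
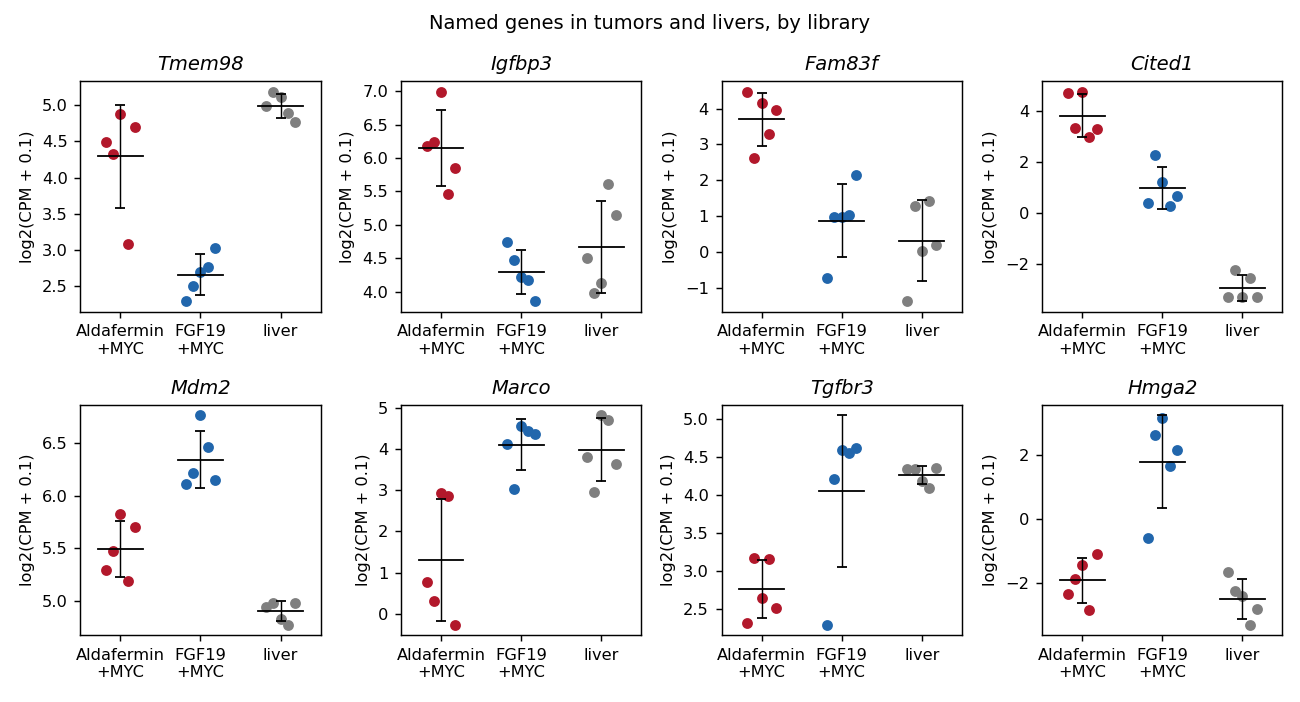
Expression of 8 named genes as log2(CPM + 0.1) (vertical axis) in Aldafermin+MYC tumors (red), FGF19+MYC tumors (blue) and livers (gray), with 1 point per library, the mean as a horizontal line and the SD (n = 5) as error bars. Tmem98, Igfbp3, Fam83f and Cited1 were higher and Mdm2, Marco and Hmga2 lower in every Aldafermin+MYC tumor than in any FGF19+MYC tumor, whereas Tgfbr3 was low in FGF19+MYC replicate 1.

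Among genes lower in Aldafermin+MYC tumors, Mdm2 led. It encodes the ubiquitin ligase that degrades p53 and is itself a p53 target, and had 39.1, 44.4, 56.4, 36.4 and 52 CPM in Aldafermin+MYC tumors and 68.9, 74.3, 109, 88.2 and 70.9 CPM in FGF19+MYC tumors. All tumors were above livers (27.2 to 31.5 CPM), and the tumor groups did not overlap. The log2 fold change was -0.85 (standard error 0.15, adjusted p = 0.0595 in edgeR's quasi-likelihood test, 2.54e-05 in DESeq2, 0.000726 in the likelihood ratio test and 0.00452 in limma-voom). Slc39a10, a zinc importer, had 65.6, 37.5, 33.7, 33 and 38 CPM in Aldafermin+MYC tumors and 85.1, 67.8, 107, 111 and 52.7 CPM in FGF19+MYC tumors, where 1 tumor of each group lay within the range of the other. Livers were at 3.51 to 7.53 CPM, and the log2 fold change was -1.03 (standard error 0.24, adjusted p = 0.172).
Rab20, a small GTPase of the endocytic pathway, differed by less than the genes above, with little spread within the groups. It had 15.7, 18.6, 16.8, 16.3 and 15.5 CPM in Aldafermin+MYC tumors and 26.2, 26.8, 25.7, 23.3 and 22.5 CPM in FGF19+MYC tumors, which gave -0.59 ± 0.14 (standard error) on the log2 scale and an adjusted p of 0.18. Tgfbr3, the betaglycan co-receptor for TGF-beta ligands, had 4.91, 8.93, 6.19, 8.85 and 5.61 CPM and 4.8, 18.4, 24.1, 23.4 and 24.6 CPM in the same order of groups. FGF19+MYC replicate 1 was below all Aldafermin+MYC tumors for this gene, and the other 4 were above them, near livers (17 to 20.5 CPM). Its log2 fold change was -1.47 (standard error 0.37).
ND5, a mitochondrially encoded subunit of respiratory complex I, had 612, 879, 979, 729 and 478 CPM in Aldafermin+MYC tumors and 2422, 1052, 1029, 1475 and 1421 CPM in FGF19+MYC tumors, without overlap (log2 fold change -1.01, standard error 0.27). The share of reads on 13 mitochondrially encoded genes was 0.934% to 2.41% in Aldafermin+MYC and 1.8% to 2.88% in FGF19+MYC tumors, and its part in the result was not tested. Of the other 7 leading genes in this direction, Dip2c, Ankrd10 and Gramd4 did not overlap between the groups and Zswim5, Banp and Gpr182 did. Gpr182, an endothelial chemokine scavenger, had 2.09, 1.59, 1.95, 12.4 and 2.05 CPM in Aldafermin+MYC tumors and 7.7, 10.8, 13.7, 13.2 and 19.4 CPM in FGF19+MYC tumors, where replicate 4 stood apart from the other 4 Aldafermin+MYC tumors. Without that library its log2 fold change went from -1.70 to -2.75. The 7th gene, the scavenger receptor Marco, is described with the macrophage genes.

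Genes of the FGF19 receptor complex were expressed at like levels in both groups. Fgfr4 had 31.2, 24.9, 30.1, 24.7 and 21.9 CPM in Aldafermin+MYC tumors and 18.7, 30.8, 25.8, 22.8 and 27.7 CPM in FGF19+MYC tumors, below livers (74.4 to 89.7 CPM). Klb had 136, 88.3, 68.7, 66.3 and 91.5 CPM and 67.9, 80.5, 97.2, 99.7 and 76.6 CPM, with livers at 84.9 to 133 CPM. Both genes overlapped widely between the tumor groups. The log2 fold change of Fgfr4 was 0.08 with a 95% interval of -0.25 to 0.40, and that of Klb was 0.10 with an interval of -0.34 to 0.54. Of the 10 receptor, co-receptor and adaptor genes tested, 0 were higher and 1 lower at an unadjusted p under 0.05, with a median log2 fold change of -0.07 beside 0.02 over all genes tested. The 1 gene was Gab1, a docking protein downstream of FGF receptors, with 5.3, 3.99, 5.47, 6.31 and 1.29 CPM in Aldafermin+MYC tumors and 5.41, 11.5, 8.93, 9.74 and 11.1 CPM in FGF19+MYC tumors (log2 fold change -1.07, standard error 0.38, unadjusted p = 0.0118, adjusted p = 0.465). Fgf15, the hormone of the mouse itself, was at 0 counts in 3 of the 5 Aldafermin+MYC and all 5 FGF19+MYC tumors and did not enter the test.
Feedback genes that the ERK pathway induces, such as sprouty, spred and dual-specificity phosphatase genes, gave 0 higher and 0 lower of 15 tested, with a median of -0.20. The gene of this list with the smallest p was the immediate early gene Egr1, with 3.01, 3.67, 9.15, 8.08 and 2.61 CPM in Aldafermin+MYC tumors and 6.59, 8.23, 8.08, 12 and 21.9 CPM in FGF19+MYC tumors (log2 fold change -1.11, 95% interval -2.39 to 0.18). Spred1, an inhibitor of RAS signaling, had a log2 fold change of -0.24 with an interval of -0.89 to 0.41.

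Cyp7a1 and Cyp8b1, enzymes of bile acid synthesis, were below livers in all tumors, and the direction of their difference between the tumor groups turned on 1 library. Cyp7a1 had 0.0243, 0.174, 0, 28.8 and 0 CPM in Aldafermin+MYC tumors and 0.335, 1.53, 0.314, 0.176 and 3.3 CPM in FGF19+MYC tumors, against 117 to 534 CPM in livers. Aldafermin+MYC replicate 4 was far above the other 9 tumors, and in the remaining 4 Aldafermin+MYC tumors Cyp7a1 was at or near 0. The log2 fold change was 2.30 (95% interval -0.61 to 5.2) with all tumors and -4.41 without replicate 4 (unadjusted p = 0.00219 in edgeR's quasi-likelihood test), so that its direction turned on that library. Cyp8b1, the sterol hydroxylase that sets the proportion of cholic acid, had 0.267, 5.06, 1.79, 44.1 and 2.08 CPM and 2.34, 10.7, 5.21, 5.31 and 11 CPM, against 112 to 519.6 CPM in livers. Its log2 fold change went from 0.61 to -1.59 without replicate 4. Nr0b2, the nuclear receptor SHP that represses Cyp7a1, had 33.9, 18.8, 14.6, 7.19 and 45.5 CPM in Aldafermin+MYC and 82.2, 2.59, 18.4, 31.7 and 14.7 CPM in FGF19+MYC tumors (log2 fold change -0.31, 95% interval -2.09 to 1.46), a range as wide within groups as between them.
Of 18 bile acid synthesis genes, 0 were higher and 0 lower at an unadjusted p under 0.05, with a median log2 fold change of -0.08. Without Aldafermin+MYC replicate 4, 7 were lower and 0 higher, beside 646 lower (4.51%) and 765 higher (5.34%) over all genes. The median was -0.66 without that tumor and 0.22 without FGF19+MYC replicate 5. Of 13 bile acid transport and sensing genes, 1 was higher and 1 lower. The higher one was the organic anion transporter Slco1a1, with 0.219, 0.0496, 0.24, 13 and 0.645 CPM in Aldafermin+MYC tumors and 0.112, 0.0728, 0.0449, 0.117 and 0.0703 CPM in FGF19+MYC tumors. This difference lay for the most part in replicate 4, without which the log2 fold change went from 4.98 to 1.71 (unadjusted p = 0.227). The lower one was its relative Slco1a4, with 1.31, 0.0744, 0.667, 7.19 and 1.15 CPM and 1.73, 4.55, 2.24, 7.1 and 27.4 CPM (log2 fold change -2.10, standard error 0.88), for which FGF19+MYC replicate 5 was the highest. For Cyp7a1, Cyp8b1 and Slco1a4 the 2 highest tumors were Aldafermin+MYC replicate 4 and FGF19+MYC replicate 5, which also had the highest level of hepatocyte markers, and the part of hepatocyte content in these results was not tested.

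**Figure D3:**
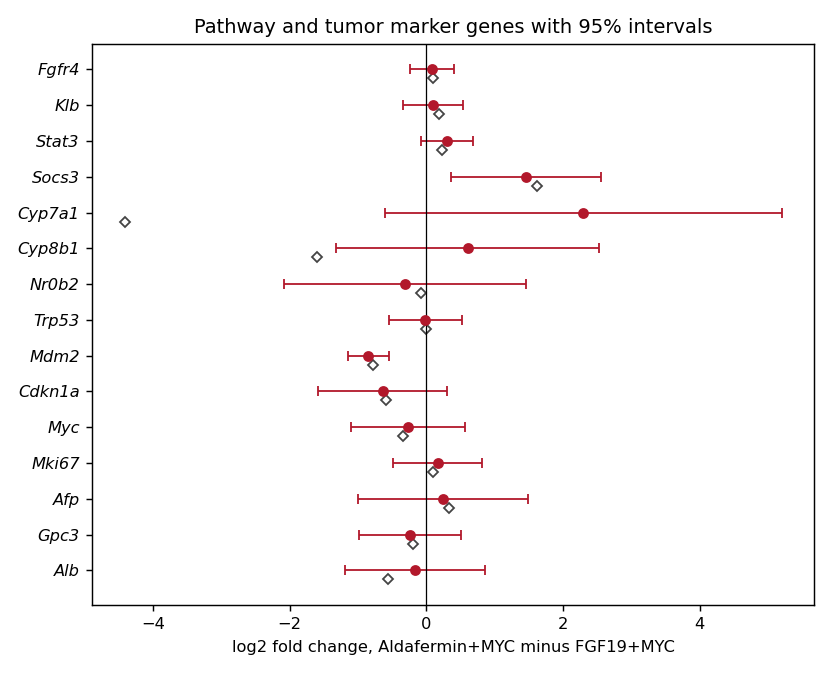
Log2 fold change between Aldafermin+MYC and FGF19+MYC tumors (horizontal axis, positive where Aldafermin+MYC was higher) of 15 genes of FGF19, p53 and growth pathways and of tumor and liver markers, with 95% intervals from edgeR's quasi-likelihood fit (red, 5 against 5 tumors) and the value without Aldafermin+MYC replicate 4 (open diamonds). The intervals rest on a spread per gene estimated over all 4 groups and 20 libraries. Fgfr4, Klb and Trp53 lay near 0, the interval of Mdm2 was below 0, that of Socs3 above 0, and Cyp7a1 moved from 2.30 to -4.41 without replicate 4.

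STAT3, activated by interleukin-6 family cytokines, drives the acute phase genes of the liver, and has been studied as a route of FGF19 action. Stat3 had 81.3, 124, 118, 129 and 94.8 CPM in Aldafermin+MYC tumors and 65.7, 89.1, 106, 89.2 and 95.5 CPM in FGF19+MYC tumors, an overlap that covered most tumors (log2 fold change 0.30, 95% interval -0.08 to 0.68). Socs3, the feedback inhibitor that STAT3 induces, had 2.79, 5.16, 19.9, 4.23 and 8.61 CPM in Aldafermin+MYC tumors and 2.85, 2.55, 2.96, 2.35 and 4.11 CPM in FGF19+MYC tumors. Aldafermin+MYC replicate 3 was the highest, and 4 of the 5 Aldafermin+MYC tumors were above all FGF19+MYC tumors (log2 fold change 1.46, standard error 0.52, unadjusted p = 0.0116, adjusted p = 0.462 in edgeR's quasi-likelihood test). With each tumor left out in turn the value lay between 0.81 and 1.68, and the unadjusted p stayed under 0.05 in 9 of 10 fits. Of 26 STAT3 and acute phase genes, 2 were higher and 1 lower, with a median log2 fold change of 0.30. The second higher gene was Fgg, the fibrinogen gamma chain, with 705, 663.6, 609, 1023 and 1589 CPM and 504, 529, 578, 606 and 866 CPM in the same order of groups, and the lower one was the leptin receptor Lepr, with 1.12, 2.48, 2.11, 6.35 and 1.57 CPM and 3.96, 5.86, 2.56, 11.2 and 21.2 CPM. With each tumor left out in turn, 1 to 5 genes of the list were higher, with 4 without Aldafermin+MYC replicate 1, 5 without FGF19+MYC replicate 5, 2 without Aldafermin+MYC replicate 2 and 1 without any other.

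Of 33 p53 target genes tested, 0 were higher and 7 lower in Aldafermin+MYC tumors at an unadjusted p under 0.05, where 2.35% of all genes were lower, and 28 had a negative log2 fold change, with a median of -0.29 beside 0.02 over all genes. With each tumor left out in turn 5 to 10 were lower, with 7 without Aldafermin+MYC replicate 4 (4.51% of all genes) and 9 without FGF19+MYC replicate 1 (3.49%). An earlier analysis of these libraries had already shown a lower level of p53 targets in these tumors, so that the count is a description and not independent evidence. Trp53 itself did not differ beyond the spread, with 176, 159, 129, 135 and 90.8 CPM in Aldafermin+MYC tumors and 109.7, 155, 148, 148 and 137 CPM in FGF19+MYC tumors (log2 fold change -0.02, 95% interval -0.55 to 0.52).
Beside Mdm2, the p53 list held Plk2, a kinase of the cell cycle and centriole, with 19.9, 5.38, 19.98, 5.92 and 9.57 CPM in Aldafermin+MYC tumors and 26.9, 20.9, 34.5, 21.5 and 24.4 CPM in FGF19+MYC tumors, without overlap although replicates 1 and 3 of the Aldafermin+MYC group came close (log2 fold change -1.08, standard error 0.32, adjusted p = 0.347). Trp53inp1, an autophagy and stress protein, had 19.1, 10.5, 19.3, 36.3 and 35.7 CPM and 21.9, 40.4, 67.5, 50.8 and 48.5 CPM (log2 fold change -0.92, standard error 0.34). The other 4, named after their values were seen, were the pro-apoptotic Bbc3 (-0.61), the repair polymerase Polk (-0.60), the TNF receptor family member Eda2r (-1.22) and the mTOR inhibitor Ddit4l (-1.24), given as log2 fold changes with adjusted p-values from 0.502 to 0.636. Cdkn1a, the cell cycle inhibitor p21 and the best known p53 target, had 86.4, 47.3, 138, 77 and 107 CPM in Aldafermin+MYC tumors and 104, 143, 164, 139 and 162 CPM in FGF19+MYC tumors, far above livers (1.15 to 16.6 CPM) in both. Its log2 fold change was -0.64 with an interval of -1.59 to 0.30, so that a difference of the size seen for Mdm2 lay within it. That interval rests on a spread shared with livers and sgTrp53+MYC tumors and is not the spread of these tumors alone. The adjusted p of Cdkn1a was 0.787 in DESeq2 and 0.0847 in limma-voom.

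Target genes of beta-catenin, which in the adult liver are most active around the central vein, had a mean level that overlapped between the groups. The mean log2 CPM of the 16 genes tested was 1.16, 0.307, 1.54, 4.14 and 0.678 in Aldafermin+MYC replicates 1 to 5 and 1.44, 3.22, 2.57, 3.2 and 4.75 in FGF19+MYC replicates 1 to 5, against 6.61 ± 0.41 (SD, n = 5) in livers. Replicate 4 of the first group and replicate 5 of the second were the highest, as they were for hepatocyte genes, and FGF19+MYC replicate 1 lay among the Aldafermin+MYC tumors. Of the 16, 0 were higher and 2 lower at an unadjusted p under 0.05 (2.35% of all genes), 15 had a negative log2 fold change, and the median was -0.90. Without Aldafermin+MYC replicate 4, 10 were lower and 0 higher, beside 4.51% and 5.34% of all genes, and without any other tumor 1 or 2 were lower. The median turned on single tumors in both directions, at -2.30 without Aldafermin+MYC replicate 4 and 0.02 without FGF19+MYC replicate 5. The list shares Cyp1a2 and Cyp2e1 with the hepatocyte list.
Rnf43, a ubiquitin ligase that removes WNT receptors and is itself a WNT target, had 2.55, 5.88, 0.774, 7.23 and 0.533 CPM in Aldafermin+MYC tumors and 5.64, 12.6, 10.6, 10.3 and 14.1 CPM in FGF19+MYC tumors (log2 fold change -1.66, standard error 0.54, unadjusted p = 0.00641, adjusted p = 0.403). The groups overlapped only through Aldafermin+MYC replicates 2 and 4 and FGF19+MYC replicate 1. The transcription factor Tbx3 had 0, 0.0248, 0.774, 3.88 and 0.365 CPM and 0.949, 3.17, 3.77, 3.11 and 7.31 CPM, where replicate 4 was the single Aldafermin+MYC tumor above 1 CPM. Axin2, the feedback inhibitor used as a reporter of WNT signaling and named after its values were seen, was at 0 in 3 Aldafermin+MYC tumors and at 1.69 CPM in replicate 4, and ranged over 0.0558 to 1.83 CPM in FGF19+MYC tumors. The pericentral cytochrome Cyp2e1, likewise chosen, had 15.3, 0.347, 13.8, 837 and 4.01 CPM in Aldafermin+MYC tumors and 31.3, 207, 56.7, 154 and 1369.5 CPM in FGF19+MYC tumors, against 5499 to 11849 CPM in livers. Glul, glutamine synthetase and a classical target of the pathway, had like means in the tumor groups. It had 233, 236, 259, 476 and 178 CPM and 154, 244, 242, 278 and 475 CPM (log2 fold change -0.01, 95% interval -0.65 to 0.63). As for the list, Aldafermin+MYC replicate 4 and FGF19+MYC replicate 5 were the highest, and without the former the log2 fold change of Glul was -0.30.
The hepatocyte list itself showed a like dependence. Of 24 genes tested, 0 were higher and 0 lower, with a median log2 fold change of -0.11, and 7 were lower without Aldafermin+MYC replicate 4 (4.51% of all genes). The median was -0.53 without that tumor and 0.27 without FGF19+MYC replicate 5. Alb, albumin, had 4041, 4899.7, 5161, 14275 and 7759 CPM in Aldafermin+MYC tumors and 2972, 6876, 7416, 6053 and 17173 CPM in FGF19+MYC tumors against 147485 to 177109 CPM in livers. Its log2 fold change was -0.16 (95% interval -1.19 to 0.86).

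**Figure D4:**
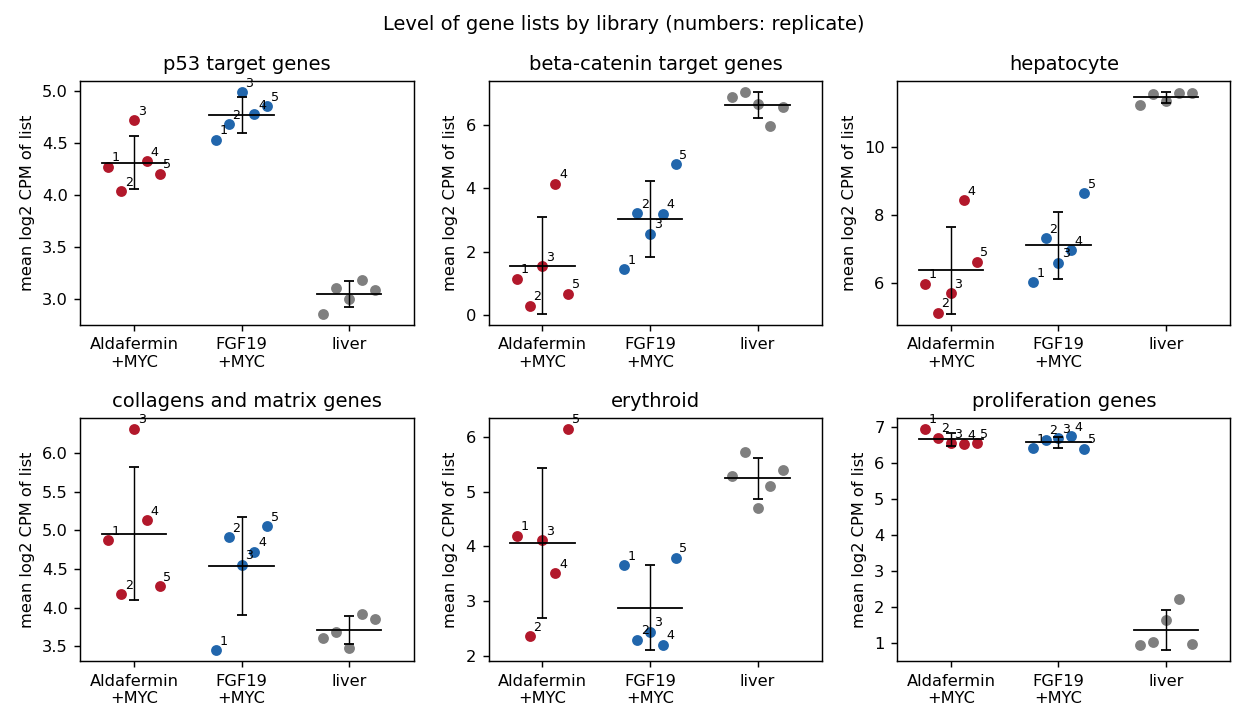
Mean log2 CPM of 6 gene lists (vertical axis) in each Aldafermin+MYC tumor (red), FGF19+MYC tumor (blue) and liver (gray), with replicate numbers beside the tumor points, the mean as a horizontal line and the SD (n = 5) as error bars. Aldafermin+MYC replicate 4 and FGF19+MYC replicate 5 were the highest tumors for beta-catenin targets and hepatocyte genes, Aldafermin+MYC replicate 3 for matrix genes and replicate 5 for erythroid genes, while proliferation genes lay within 6.39 to 6.95 in all 10 tumors.

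Among genes of the insulin-like growth factor axis, 2 were higher (Igfbp3 and Stc1) and 3 lower of 17 tested, with a median of -0.10. Stc1, stanniocalcin, inhibits the protease that frees growth factors from their binding proteins, and had 3.06, 5.98, 4.4, 3.15 and 1.74 CPM in Aldafermin+MYC tumors and 1.45, 2.59, 1.48, 0.968 and 1.65 CPM in FGF19+MYC tumors (log2 fold change 1.17, standard error 0.49). The receptor substrate Irs1 had 8.06, 9, 5.95, 14.2 and 6.99 CPM and 9.1, 14.1, 14.7, 17.2 and 15.1 CPM (log2 fold change -0.67, standard error 0.25, adjusted p = 0.499). The remaining lower genes, named after their values were seen, were the clearance receptor Igf2r (-0.56) and Igfbp2 (-1.64), the latter with 15.5, 7.62, 8.75, 53 and 9.34 CPM and 144, 21.7, 11.9, 17.7 and 99.2 CPM, so that FGF19+MYC replicates 1 and 5 were above the rest. Igf2, a fetal growth factor, was abundant in all tumors, at 5453, 7365, 6242, 5747 and 5609.9 CPM in Aldafermin+MYC and 3214, 5348, 7044, 4957 and 4145 CPM in FGF19+MYC tumors, while livers had 0.733 to 11.2 CPM. Its log2 fold change of 0.30 had an interval of -0.84 to 1.44.
Of 33 Nodal, activin and TGF-beta genes, 3 were higher and 2 lower, with a median of -0.05. Cited1, a transcriptional coactivator of SMAD factors, had 25.9, 9.95, 27.3, 7.88 and 9.85 CPM in Aldafermin+MYC tumors and 1.23, 4.77, 2.24, 1.12 and 1.48 CPM in FGF19+MYC tumors, without overlap, and 0 to 0.11 CPM in livers. Cited1 differed by 2.90 ± 0.65 (standard error) on the log2 scale, with an adjusted p of 0.127 in edgeR's quasi-likelihood test, 0.00131 in DESeq2 and 0.00528 in limma-voom. Inhbe, the inhibin beta E subunit secreted by hepatocytes, had 9.33, 24.8, 20.3, 28.7 and 18.9 CPM and 10.7, 8.37, 8.75, 6.66 and 11.1 CPM, and its lowest Aldafermin+MYC tumor, replicate 1, lay within the FGF19+MYC range (log2 fold change 1.17, standard error 0.35). Lefty1, a secreted Nodal inhibitor, was near the filter in all tumors, at 0.248 to 1.32 and 0.112 to 0.728 CPM. Beside Tgfbr3, the second lower gene was Bmp2, with 0.364, 0.67, 1.76, 3.38 and 1.82 CPM in Aldafermin+MYC tumors and 1.51, 3.82, 4.58, 4.11 and 7.66 CPM in FGF19+MYC tumors (log2 fold change -1.46, standard error 0.51). Lefty1 and Bmp2 were named after their values were seen.

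Of 30 collagen and matrix genes, 7 were higher in Aldafermin+MYC tumors (4.96% of all genes) and 0 lower at an unadjusted p under 0.05, and 26 had a positive log2 fold change, with a median of 0.58. The mean log2 CPM of the list was 4.88, 4.17, 6.31, 5.13 and 4.28 in Aldafermin+MYC tumors and 3.45, 4.91, 4.55, 4.72 and 5.05 in FGF19+MYC tumors. Aldafermin+MYC replicate 3 was the highest, and replicates 2 and 5 lay below 4 of the 5 FGF19+MYC tumors. Without Aldafermin+MYC replicate 3, 3 genes were higher (4.17% of all genes), and without any other single tumor 6 to 9. The median of the list was -0.01 without replicate 3. Lox, the enzyme that crosslinks collagen, had 6.63, 3.18, 19.3, 2.88 and 7.77 CPM in Aldafermin+MYC tumors and 1.84, 1.71, 2.65, 2.14 and 2.57 CPM in FGF19+MYC tumors, without overlap, and at most 0.309 CPM in livers (log2 fold change 1.87, standard error 0.50, adjusted p = 0.261 in edgeR's quasi-likelihood test and 0.0288 in DESeq2). The laminin chain Lamb1 had 109, 13.4, 75.1, 22 and 28.4 CPM and 8.43, 17.6, 14.2, 19 and 17.5 CPM, where replicates 1 and 3 of the Aldafermin+MYC group stood out (log2 fold change 1.69, standard error 0.47). Another laminin chain, Lama4, was at 9.86, 7.37, 25.7, 12 and 6.82 CPM and 3.07, 8.56, 4.04, 5.25 and 6.47 CPM. Col12a1, Col15a1, Timp1 and Timp2, named after their values were seen, made up the 7, with log2 fold changes of 1.26, 0.97, 2.02 and 0.76. For Col12a1, replicate 3 had 18.5 CPM and the other 9 tumors had at most 5.47 CPM. Col1a1, the main fibrillar collagen chain, did not differ beyond the spread. It had 145, 98.2, 871, 235 and 49.9 CPM in Aldafermin+MYC tumors and 38.4, 298, 127, 157 and 252 CPM in FGF19+MYC tumors, and its log2 fold change of 0.68 was -0.40 without Aldafermin+MYC replicate 3.
Matrix genes are made in the liver mainly by stellate cells and fibroblasts, and 1 of the 14 markers of these cells was higher and 0 lower, beside 4.96% and 2.35% of all genes. The counts were 1 higher and 2 lower without Aldafermin+MYC replicate 4, 2 and 0 without replicate 1 and 3 and 0 without replicate 2. The higher gene with all tumors was Thy1, a surface protein of fibroblasts and T cells, with 6.63, 3.35, 24.4, 9.92 and 9.01 CPM in Aldafermin+MYC tumors and 1.34, 4.55, 1.75, 2.52 and 3.34 CPM in FGF19+MYC tumors (log2 fold change 1.97 with a standard error of 0.49, adjusted p = 0.185 in edgeR's quasi-likelihood test and 0.0128 in DESeq2). The mean log2 CPM of the marker list was 2.03, 1, 3.84, 3.49 and 2.21 in Aldafermin+MYC tumors and 1.56, 2.76, 2.19, 2.55 and 3.4 in FGF19+MYC tumors, highest in replicates 3 and 4 of the first group and 5 of the second, and the part of these cells in the matrix counts was not tested. Of 21 genes of the epithelial to mesenchymal transition, 1 was higher, the gelatinase Mmp2 (log2 fold change 1.42, standard error 0.46), and 0 were lower.

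Of 14 Kupffer cell and macrophage genes, 5 were higher and 5 lower in Aldafermin+MYC tumors at an unadjusted p under 0.05, beside 4.96% and 2.35% of all genes, with a median over the list of 0.16 on the log2 scale. The number lower was 4 to 6 with each tumor left out in turn. The number higher fell to 1 without Aldafermin+MYC replicate 3, 2 without FGF19+MYC replicate 4 and 3 without FGF19+MYC replicate 3, and was 4 or 5 without any other. The mean log2 CPM of the list was 3.375, 2.985, 4.972, 5.169 and 3.584 in Aldafermin+MYC tumors and 4.593, 4.737, 5.064, 4.853 and 5.373 in FGF19+MYC tumors. Replicates 1, 2 and 5 of the Aldafermin+MYC group thus lay below all FGF19+MYC tumors, although the median log2 fold change was positive. The 5 lower genes, Marco, Cd163, Cd5l, Vsig4 and Timd4, are known from resident Kupffer cells, and the 5 higher genes, Cd68, Lyz2 and the complement genes C1qa, C1qb and C1qc, are expressed by macrophages in general. The smallest adjusted p of the list in edgeR's quasi-likelihood test was 0.31, so that none of the 10 passed the threshold over all genes.
Marco, a scavenger receptor, had 1.6, 1.14, 7.52, 7.11 and 0.73 CPM in Aldafermin+MYC tumors and 17.3, 8.12, 23.4, 21.6 and 20.5 CPM in FGF19+MYC tumors, without overlap, and livers were at 7.74 to 28.2 CPM (log2 fold change -2.33, standard error 0.67). Cd163, the receptor for hemoglobin and haptoglobin, had 0.389, 0.447, 1.04, 6.5 and 0.617 CPM and 4.97, 6.63, 12.2, 8.1 and 9.91 CPM in the same order of groups. In 4 of the 5 Aldafermin+MYC tumors Cd163 was below the lowest FGF19+MYC tumor, and in replicate 4 it was within their range (log2 fold change -2.24, and -3.74 without that library). Cd5l, an apoptosis inhibitor that resident macrophages secrete, had 62.9, 106, 154, 147 and 68 CPM and 157, 176, 232, 192 and 264 CPM, without overlap (log2 fold change -0.92, standard error 0.30). For the complement receptor Vsig4 the values were 0.34, 0.0248, 1.36, 7 and 0.898 CPM and 6.08, 3.06, 13.2, 9.6 and 15.1 CPM, and for the phosphatidylserine receptor Timd4 0.146, 0.149, 1.07, 3.58 and 0.758 CPM and 1.51, 2.91, 4.22, 4.78 and 4.57 CPM. Both were lower in 4 Aldafermin+MYC tumors than in any FGF19+MYC tumor, with replicate 4 as the exception. Clec4f, the most specific Kupffer cell lectin of the list, had the same order (1.07, 0, 1.89, 36.3 and 1.07 CPM against 6.03, 12.4, 26.1, 21 and 47.2 CPM, livers 136 to 189 CPM), and missed the unadjusted threshold with all tumors (log2 fold change -1.5, unadjusted p = 0.167) but not without replicate 4 (-4.49, unadjusted p = 0.000115 in edgeR's quasi-likelihood test).
Cd68, a lysosomal protein of phagocytes, had 69, 68.5, 130.4, 76.2 and 51.1 CPM in Aldafermin+MYC tumors and 40.6, 58.5, 46, 43.1 and 59.8 CPM in FGF19+MYC tumors, above livers (13.3 to 18.9 CPM) in all tumors (0.67 ± 0.20 as log2 fold change with its standard error, adjusted p of 0.347). C1qa, C1qb and C1qc, chains of 1 complement protein encoded side by side on chromosome 4, had log2 fold changes of 0.74, 0.70 and 0.63. C1qc had 100.2, 101, 259, 132 and 84.7 CPM in Aldafermin+MYC tumors and 86.1, 95.9, 72.9, 65.5 and 116 CPM in FGF19+MYC tumors. Replicate 3 of the Aldafermin+MYC group was the highest for all 3 chains, for Cd68 and for Lyz2, and without it the log2 fold change of C1qc fell to 0.26 and that of Cd68 to 0.42. Lyz2, lysozyme, had 126, 141, 419.7, 168 and 255 CPM and 172, 115, 72, 59 and 96.6 CPM (log2 fold change 1.11, standard error 0.46), and it is also a gene of neutrophils. Of these genes the naming rule gave Marco, Cd163 and Cd68, and the others were chosen after their values were seen.

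**Figure D5:**
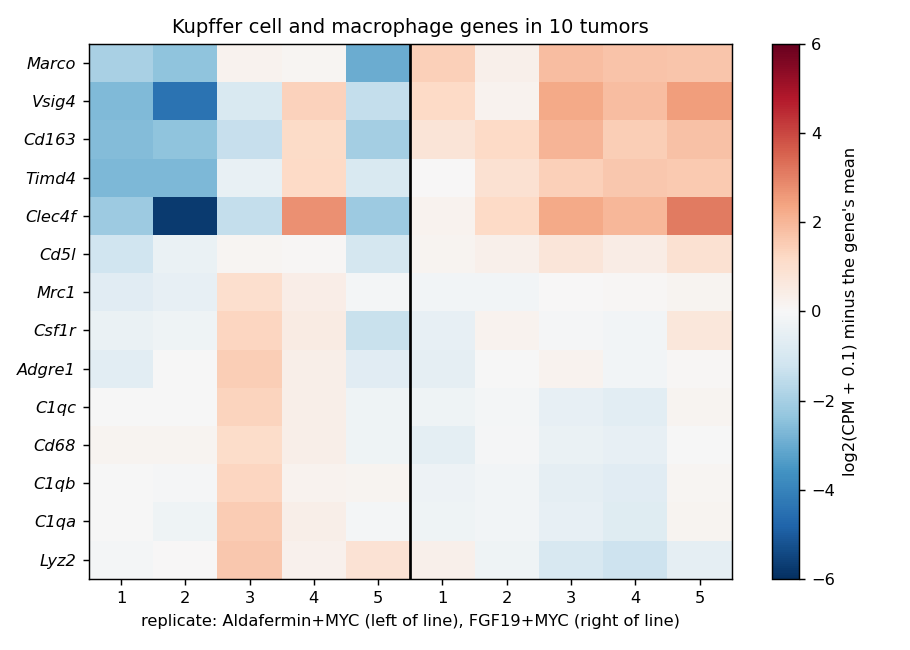
Log2(CPM + 0.1) of 14 Kupffer cell and macrophage genes (rows, ordered by log2 fold change) minus the mean of each gene over 10 tumors, in Aldafermin+MYC replicates 1 to 5 (left of the line) and FGF19+MYC replicates 1 to 5 (right), with values above the gene's mean in red and below in blue. Marco, Vsig4, Cd163, Timd4 and Clec4f were low in Aldafermin+MYC replicates 1, 2 and 5, and C1qa, C1qb, C1qc, Cd68 and Lyz2 were highest in replicate 3.

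Of 15 endothelial genes tested, 1 was higher (Emcn, the vascular sialomucin endomucin) and 1 lower (Stab2, a hyaluronan receptor of sinusoidal endothelium), counts near the 4.96% and 2.35% of all genes. Without Aldafermin+MYC replicate 4, 5 were lower (4.51% of all genes) and 0 higher, and without any other tumor 0 to 2 were lower and 0 or 1 higher. Stab2 had 6.8, 11.8, 21.9, 21.7 and 4.1 CPM in Aldafermin+MYC tumors and 17, 22, 28.1, 27.2 and 38.4 CPM in FGF19+MYC tumors (log2 fold change -1.0, standard error 0.41), lowest in Aldafermin+MYC replicates 1, 2 and 5 as for the resident macrophage genes. Emcn had 7.58, 6.65, 7.9, 9.23 and 11.3 CPM and 4.63, 5.35, 6.15, 8.8 and 5.83 CPM (log2 fold change 0.47, standard error 0.21).
All 5 erythroid genes tested were higher in Aldafermin+MYC tumors at an unadjusted p under 0.05 (4.96% of all genes), with a median log2 fold change of 1.64. Without Aldafermin+MYC replicate 5, 0 of the 5 were, and without any other tumor 4 or 5. Hba-a1, an alpha-globin gene, had 41.2, 11.9, 43.6, 25.4 and 138 CPM in Aldafermin+MYC tumors and 22.8, 11.7, 11.7, 11.4 and 30.5 CPM in FGF19+MYC tumors, and livers had 49 to 106 CPM. Aldafermin+MYC replicate 5 was the highest, and the other 9 tumors lay below the livers. Alas2, the erythroid enzyme of heme synthesis, had 4.59, 1.14, 3.07, 3.58 and 9.96 CPM and 2.01, 1.09, 1.35, 1.12 and 3.13 CPM (log2 fold change 1.36, standard error 0.51). The alpha-globins Hba-a1 and Hba-a2 and the beta-globins Hbb-bs and Hbb-bt are near-identical pairs whose counts are uncertain, so that these 5 genes amount to fewer independent measurements, and the source of this RNA was not tested. Of the 5 T and NK cell genes that passed the filter out of 15, 2 were higher with all tumors and 0 without Aldafermin+MYC replicate 3, without replicate 4 or without FGF19+MYC replicate 4, among them the granzyme Gzmb at 1.02 to 2.31 CPM in Aldafermin+MYC and 0.44 to 0.983 CPM in FGF19+MYC tumors. Of B cell, neutrophil and skeletal muscle markers, 2, 3 and 2 passed the filter and 0 had an unadjusted p under 0.05. Among 7 biliary genes 1 was higher and 0 lower at an unadjusted p under 0.05. The list as a whole leaned the other way, with 2 positive and 5 negative log2 fold changes and a median of -0.52. The 1 gene was the annexin Anxa13, with 26.2, 17.4, 18.5, 0.923 and 14.4 CPM in Aldafermin+MYC tumors and 5.92, 0.328, 0.224, 0.176 and 0.598 CPM in FGF19+MYC tumors (log2 fold change 3.48, standard error 1.09). It was low in replicate 4 of the first group and highest in replicate 1 of the second.

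Growth genes gave few differences. Of 30 proliferation genes, 0 were higher and 0 lower, with log2 fold changes between -0.24 and 0.30 and a median of 0.12. Mki67, the proliferation antigen, had 166, 180.2, 152, 176 and 74.4 CPM in Aldafermin+MYC tumors and 82.6, 159, 140.3, 159 and 127 CPM in FGF19+MYC tumors, against 1.59 to 6.28 CPM in livers (log2 fold change 0.16, 95% interval -0.49 to 0.82). Rrm2, the small subunit of ribonucleotide reductase, had a log2 fold change of 0.24 (95% interval -0.09 to 0.57). Of 29 genes of the MYC network and MYC-driven growth, 0 were higher and 2 lower, the MYC antagonist Mnt (-0.55, unadjusted p = 0.049 in edgeR's quasi-likelihood test) and the ribosomal RNA processing gene Rrp9 (-0.27, unadjusted p = 0.0401). The endogenous mouse Myc gene had 2.45, 2.56, 7.42, 4.23 and 1.35 CPM and 1.51, 4.08, 3.73, 5.58 and 6.78 CPM, 7 of the 10 below the lowest liver (5.24 to 11.4 CPM), a row that counts the mouse gene and not the injected human one.
Oncofetal genes, silent in adult liver and expressed again in liver cancer, gave 1 higher and 1 lower of 24, with a median of 0.04. Afp, alpha-fetoprotein, had 2306, 3051, 3817, 2484 and 4816 CPM in Aldafermin+MYC tumors and 1839.6, 2754, 3966, 3052 and 2258 CPM in FGF19+MYC tumors, and livers had 0.265 to 6.35 CPM. Gpc3, a surface proteoglycan used in the diagnosis of liver cancer, had 333, 336, 349, 277 and 262 CPM and 323, 387, 416, 396 and 314 CPM. Their log2 fold changes were 0.25 (95% interval -1.0 to 1.5) and -0.24 (95% interval -0.99 to 0.51). Hmga2, a chromatin protein of embryonic tissue, had 0.0972, 0.174, 0.267, 0.0385 and 0.365 CPM in Aldafermin+MYC tumors and 0.558, 6.12, 8.8, 3.05 and 4.36 CPM in FGF19+MYC tumors. It was at most 0.365 CPM in Aldafermin+MYC tumors, near livers (0 to 0.215 CPM), and without overlap with the other group, but FGF19+MYC replicate 1 was near the Aldafermin+MYC range (log2 fold change -4.56, 95% interval -7.85 to -1.27, adjusted p = 0.429). Lin28b, which blocks the maturation of let-7 microRNAs, went the other way, with 32.3, 1.76, 17.3, 2.65 and 7.89 CPM and 4.63, 3.64, 5.03, 5.69 and 1.34 CPM (log2 fold change 1.61, standard error 0.70) and 0 CPM in livers.

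In metabolism, 3 of 19 genes of fatty acid oxidation and ketogenesis were higher and 0 lower (4.96% and 2.35% of all genes), with a median of 0.27. The counts were 2 higher and 2 lower without Aldafermin+MYC replicate 4 and 6 higher without FGF19+MYC replicate 1, and 1 was higher without Aldafermin+MYC replicate 2 or 5 or FGF19+MYC replicate 2 or 3. Cpt2, the inner carnitine palmitoyltransferase of mitochondria, had 124, 125, 104, 132 and 121 CPM in Aldafermin+MYC tumors and 67.4, 79.2, 91.5, 80.2 and 83.9 CPM in FGF19+MYC tumors, without overlap, and livers had 233 to 339.8 CPM (log2 fold change 0.59, standard error 0.19, adjusted p = 0.377). Acadvl and Ehhadh, which act in the mitochondrial and peroxisomal spirals of oxidation, had log2 fold changes of 0.39 and 0.77. Among 21 glycolytic and glucose genes, 3 were higher and 0 lower, with a median of 0.18, and without Aldafermin+MYC replicate 4 the counts were 5 higher and 2 lower. Without any other tumor 2 to 4 were higher and 0 lower. The 3 were the enzymes Tpi1 (0.39, standard error 0.14) and Pgk1 (0.50, standard error 0.21) and the lactate exporter Slc16a3, with 19.2, 4.89, 46.8, 1.58 and 12.7 CPM and 1.9, 4.73, 1.84, 2.96 and 9.14 CPM. Slc16a3 was high in Aldafermin+MYC replicates 1, 3 and 5, within the FGF19+MYC range in replicate 2 and below it in replicate 4. Of 24 lipid synthesis genes and 16 YAP and Hippo target genes 0 were higher and 0 lower, with medians of 0.11 and -0.14, and of 19 ATF4 and serine pathway genes 0 were higher and 1 lower, with a median of -0.05.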

How the data were processed

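RNA of individual liver tumors and livers was sequenced as stranded, polyadenylated mRNA libraries in paired ends, converted with bcl2fastq 2.20.0.422, aligned with HISAT2 (version not given in the sources used here) to mm39 and counted per RefSeq gene with htseq-count, whose strand setting is not given in the sources used here. The authors deposited these raw counts per gene without normalization, in 2 tables of 50559 genes, and 0 columns were left out. The second table holds 5 sgTrp53+MYC tumors. They took no part in the comparison itself, but entered the filter on low counts, the normalization and the estimate of spread.
The 5 summary rows of htseq-count were set aside, which left 14333 genes that reached 1 CPM in 5 or more libraries. Counts were fitted in R 4.3.3 with edgeR 4.0.16 (TMM, quasi-likelihood test, 4 groups and 20 libraries), and p-values were adjusted over all genes tested by the Benjamini-Hochberg method at 0.05. CPM values are TMM-normalized, and list levels are means of log2 CPM with a prior count of 2. DESeq2 1.42.0, edgeR's likelihood ratio test, limma 3.58.1 (voom), RLE size factors, other filters, fewer libraries, a replicate block and each tumor left out in turn were alternatives, and Aldafermin+MYC replicate 4 and FGF19+MYC replicate 1 were left out together after seeing the data. Every pair of libraries of a group differed by more than counting noise (chi-square per degree of freedom of at least 15.5). Tests were checked on simulated counts.
Named were the 12 genes of smallest p in each direction with a mean of at least 5 CPM over the tumors (without predicted genes and pseudogenes), up to 3 per list, and a fixed set of pathway and marker genes, not all of which are printed. Others are said to be chosen after their values were seen. Members and lists were chosen with earlier results of these data known. Depth was 18004977 to 36119799 reads on genes in the tumors, and its part in the precision of each library was not tested. Promoters are from RefSeq (GRCm38.p6) and coordinates from GENCODE M39 (GRCm39). The sources used here do not give the day of injection. The p-values of the quasi-likelihood test rest on a spread per gene shared by all 4 groups, and not on the 10 compared tumors alone.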

Additional observations from a re-analysis of the deposited data

Results flagged for a closer look

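In 44 of 238 groups of 5 libraries, that is the CPM of each of 117 genes, the depth and the share of reads not aligned in each tumor group, a single tumor stood far from the other 4 by Dixon's test at the 95% level, in 42 as the highest and in 2 as the lowest. For normally distributed values chance gives about 1 in 20, or 11.9. The gene values were CPM without log transformation, in which single high values can be more frequent, so that 44 cannot be read as an excess over 11.9. Genes were named partly for their change, and neighbouring genes of a cell type count more than once, so the groups are not independent.

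Aldafermin+MYC replicate 4 held 21 of them, in CPM with the next highest tumor of its group in parentheses. Genes of bile acid handling and of the liver lobule were Cyp7a1 at 28.8 (0.174), Cyp8b1 at 44.1 (5.06), the transporters Slco1a1 at 13.0 (0.645) and Slco1a4 at 7.19 (1.31), Cyp2e1 at 837 (15.3), Glul at 476 (259), Axin2 at 1.69 (0.0534), Tbx3 at 3.88 (0.774), Lepr at 6.35 (2.48) and Igfbp2 at 53 (15.5). Genes of resident macrophages and of endothelium were Clec4f at 36.3 (1.89), Vsig4 at 6.999 (1.36), Timd4 at 3.58 (1.07), Cd163 at 6.50 (1.04) and Gpr182 at 12.4 (2.09). Genes of mast cells were Mcpt4 at 71.0 (14.8), Tpsb2 at 60.3 (16.0), Cpa3 at 42.0 (11.0), Cma1 at 39.3 (11.2), Hdc at 14.4 (2.53) and Fcer1a at 7.42 (2.08).

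Aldafermin+MYC replicate 3 was highest in matrix genes, with Col1a1 at 871 (235), Col12a1 at 18.5 (5.47) and Lama4 at 25.7 (12), and in complement genes of macrophages, with C1qa at 216 (94.2), C1qb at 273 (126) and C1qc at 259 (132). Replicate 5 was highest in globin genes, with Hbb-bs at 392 (67.0), Hba-a1 at 138 (43.6), Hba-a2 at 70.2 (18.1) and Hbb-bt at 46.5 (10.8), and lowest in the proliferation gene Mki67, at 74.4 with the next lowest tumor at 152. Replicate 1 was highest in Slc39a10 at 65.6 (38.0), Rrp9 at 99.0 (81.6) and Smarca1 at 8.94 (3.38).

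FGF19+MYC replicate 5 was highest in Cyp2e1 at 1369.5 (207), Fgg at 866 (606), Slco1a4 at 27.4 (7.10), Gramd4 at 26.8 (20.5) and Axin2 at 1.83 (0.51). FGF19+MYC replicate 1 was highest in Anxa13 at 5.92 (0.598), Tpsb2 at 2.90 (0.874) and Fcer1a at 1.12 (0.088), and lowest in Col12a1 at 1.67, with the next lowest tumor at 2.64. The part of cell composition or dissection in these values was not tested.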

How the results depend on the processing

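The count of called genes depended on the test and on single tumors. Against 0 in edgeR's quasi-likelihood test (1048 genes at an unadjusted p under 0.05), 96 genes were called by DESeq2 (85 adjusted p-values not given), 59 by the likelihood ratio test, 73 by limma-voom, 2 with RLE size factors, 20 with the 15 libraries of the first table and 0 with no filter, the stricter filter or the 10 tumors alone. Leaving out 1 tumor gave 0 to 29 calls, with 29 without Aldafermin+MYC replicate 4 and 6 without replicate 2, and leaving out Aldafermin+MYC replicate 4 and FGF19+MYC replicate 1 together, an alternative chosen after seeing the data, gave 86. The unadjusted count moved to 1737 in limma-voom, 2104 without a filter and 1918 without both tumors, and was 758 to 1411 with 1 tumor left out. The deviations of same-numbered tumors from their group means correlated at -0.257 to 0.2, and 1 of 5 numbers matched its own number best. With 5 values and nothing to compare them with, this cannot decide whether the numbers pair samples. Same-numbered tumors came from different mice, and the main fit used no pairing. With the replicate block 2 genes were called and 791 had an unadjusted p under 0.05. The median log2 fold change of the neutrophil list, 0.37, ran from -1.65 without Aldafermin+MYC replicate 5 to 1.69 without FGF19+MYC replicate 1. Medians of other lists moved as well. That of beta-catenin targets ran from -2.30 without Aldafermin+MYC replicate 4 to 0.02 without FGF19+MYC replicate 5. For biliary genes it ran from -0.83 without FGF19+MYC replicate 1 to 0.23 without FGF19+MYC replicate 5. For matrix genes it was -0.01 without Aldafermin+MYC replicate 3. Counts of list genes at an unadjusted p under 0.05 with 1 tumor left out stand beside each list or, for the others, were 0 to 1 higher and 1 to 2 lower for the receptor genes, 1 to 4 and 1 to 3 for the IGF axis, 2 to 4 and 2 to 6 for the Nodal, activin and TGF-beta genes (6 without Aldafermin+MYC replicate 3), 0 to 2 and 1 to 2 for the oncofetal genes, and 0 and 0 to 2 for the MYC network.

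Of 117 genes printed or kept for the text, 102 kept their direction in every alternative. The log2 fold change turned in limma-voom for Klb (-0.10), Nr0b2 (0.34), Cyp7a1 (-1.12), Cyp8b1 (-0.77), Glul (0.14), Afp (-0.12) and Kit (-0.01), and with the replicate block for Nr0b2 (0.04), Cyp7a1 (-2.96) and Cyp8b1 (-1.26). It turned without both tumors for Nr0b2 (0.74), Cyp7a1 (-4.62), Cyp8b1 (-1.81), Mki67 (-0.03), Kit (-0.29) and Hdc (-0.24). Glul was at 0.00 with the stricter filter and with the first table alone. With 1 tumor left out, the range was -4.41 to 3.24 for Cyp7a1, -1.59 to 0.93 for Cyp8b1, -0.71 to 0.51 for Nr0b2, -0.01 to 0.16 for Fgfr4, -0.10 to 0.19 for Klb, -0.12 to 0.09 for Trp53, -5.19 to 0.22 for Axin2, -0.30 to 0.27 for Glul, -5.44 to 0.63 for Cyp2e1, -0.40 to 0.96 for Col1a1, -0.57 to 0.31 for Alb, -0.03 to 0.48 for Kit and -0.15 to 1.33 for Hdc. The cause was not tested. Counts of genes near 1 CPM are low in each library, and small differences in them were not detectable at this depth.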

Other observations

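Mcpt4, Tpsb2, Cma1, Cpa3 and Fcer1a, known from mast cells, were in none of the lists above and were picked for their difference, which is therefore given as values of these 5 genes and not as a result for mast cell genes. None of them passed edgeR's quasi-likelihood test after adjustment. Mcpt4, a chymase stored in mast cell granules, had 6.8, 14.8, 4.64, 71 and 3.76 CPM in Aldafermin+MYC replicates 1 to 5 and 2.29, 1.6, 0.763, 0.381 and 0.211 CPM in FGF19+MYC replicates 1 to 5. No tumor of one group lay within the range of the other, replicate 4 was the highest, and livers had 0 to 0.11 CPM. The log2 fold change of Mcpt4 was 4.29 (standard error 0.95, adjusted p = 0.127 in edgeR's quasi-likelihood test, 0.000588 in DESeq2, 0.00707 in the likelihood ratio test and 0.0416 in limma-voom), and 2.86 without replicate 4. The tryptase Tpsb2 had 11.1, 16, 5.2, 60.3 and 3.54 CPM and 2.9, 0.874, 0.628, 0.47 and 0.246 CPM, also without overlap (log2 fold change 4.27, standard error 0.95). The chymase Cma1 had 8.4, 11.2, 4.91, 39.3 and 1.85 CPM and 2.01, 0.619, 0, 0.235 and 0.0351 CPM, where Aldafermin+MYC replicate 5 and FGF19+MYC replicate 1 met (log2 fold change 4.57, standard error 1.05). For the carboxypeptidase Cpa3 the values were 5.15, 11, 4.7, 42 and 2.41 CPM and 2.34, 1.17, 0.0449, 0.411 and 0.141 CPM (log2 fold change 4.02, adjusted p = 0.252), and for the IgE receptor chain Fcer1a 1.12, 2.08, 0.374, 7.42 and 0.393 CPM and 1.12, 0.0728, 0.0449, 0.088 and 0.0703 CPM (log2 fold change 3.15, adjusted p = 0.424). Mcpt4, Tpsb2, Cma1 and Cpa3 had an unadjusted p under 0.05 in all 10 fits that left out 1 tumor each, and Fcer1a in 9. Kit, the stem cell factor receptor, and Hdc, histidine decarboxylase, are genes that mast cells share with other cells, and neither passed an unadjusted p of 0.05. Kit had 3.62, 2.63, 7.47, 9.58 and 3.14 CPM and 0.893, 4.48, 4.71, 4.93 and 6.43 CPM (log2 fold change 0.29, -0.03 without Aldafermin+MYC replicate 4), and Hdc 1.58, 2.53, 1.89, 14.4 and 1.12 CPM and 1.4, 1.97, 1.3, 2.35 and 2.81 CPM (log2 fold change 1.12, -0.15 without that tumor), with livers at 1.72 to 4.22 CPM.
Mcpt4, Tpsb2 and Cma1 were among the 31 genes that DESeq2, the likelihood ratio test and limma-voom all called. Others of these 31, also chosen after their values were seen, included the eosinophil chemokine Ccl11 (0.846 to 2.21 CPM in Aldafermin+MYC against 0.0293 to 0.546 CPM in FGF19+MYC tumors), the chromatin remodeler Smarca1 (1.96 to 8.94 against 0 to 0.801 CPM), the immune checkpoint ligand Cd200 (3.37 to 6.09 against 1.17 to 2.29 CPM), the membrane adaptor Ank2 (23 to 46.7 against 9.31 to 19.5 CPM) and the aquaglyceroporin Aqp3 (5.73 to 20.6 against 0.949 to 3.14 CPM). None of these 5 overlapped between the groups. Their log2 fold changes were 2.71, 3.82, 1.40, 1.30 and 2.73. Of the 31 genes, 12 were also called without Aldafermin+MYC replicate 4.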
